A study of Mus musculus with 18 samples.

Results

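Gene counts were examined for 9 transcription factors tied to the effector state of regulatory T cells (Tregs), namely *Prdm1*, *Irf4*, *Batf*, *Maf*, *Nfil3*, *Bcl6*, *Id2*, *Id3* and *Irf8*. They were chosen by name out of the 50600 genes counted, from knowledge of Treg biology and with earlier results of these data known. RNA-seq was done on FACS-purified Foxp3+ Tregs of 18 mice on the C57BL/6 background, 1 mouse per library, to ask which parts of the Treg program need CD25, the IL-2 receptor α-chain encoded by *Il2ra*. Thymic Tregs came from 5 CD25cKO mice, in which Cre expressed from the *Foxp3* locus deletes floxed *Il2ra* (Foxp3-YFP/Cre), and from 5 age-matched Foxp3/RFP reporter mice, all at 3–4 weeks of age. The CD25cKO mice had been "cured" by a neonatal transfer of WT splenocytes, and the donor cells lack the YFP used for sorting. Splenic Tregs came from 4 CD25flox/Foxp3eGFP-Cre-ERT2/R26Y mice, in which tamoxifen switches on the Cre and marks the cells with YFP, and from 4 reporter controls. Those 8 mice were treated with tamoxifen at 7–10 weeks of age, and their spleens were taken 10–14 days later. Below, CD25 KO stands for the mice with deletion and WT for their controls. Tissue, mouse model, age, tamoxifen and the date in the sample column names, which may mark the sequencing run, changed together between thymic and splenic samples. Their parts in any tissue difference thus cannot be told apart. In the thymus the reporter allele of *Foxp3* also differed between CD25 KO and WT mice. The Cre and the neonatal transfer are described only for the thymic CD25 KO mice and not for their reporter controls. The parts of allele, Cre, transfer and deletion in a thymic difference therefore cannot be told apart.

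Tregs leave the thymus in a resting, central state and acquire an effector state in tissues, with suppressive cytokines, tissue-homing receptors and activation markers. BATF and IRF4 bind DNA together at composite sites and act early in this change, IRF4 is needed for expression of *Prdm1*, and *Prdm1* encodes Blimp-1, a repressor that marks effector Tregs and with IRF4 promotes *Il10*. BCL6 and Blimp-1 repress each other, and BCL6 with c-MAF drives the follicular regulatory T cells found in B cell follicles. ID2 and ID3 hold E proteins away from DNA, NFIL3 is a basic leucine zipper repressor, and IRF8 is the family member closest to IRF4. IL-2 binding to its receptor activates STAT5, which lowers *Bcl6* and raises *Prdm1* in conventional T cells.

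In GRCm38 the 9 protein-coding genes lie as follows: *Prdm1* (ENSMUSG00000038151.13) at chr10:44437177-44528501 on the minus strand, *Irf4* (ENSMUSG00000021356.9) at chr13:30749226-30766976 on the plus strand, *Batf* (ENSMUSG00000034266.5) at chr12:85686669-85709087 on the plus strand, *Maf* (ENSMUSG00000055435.6) at chr8:115682942-115707794 on the minus strand, *Nfil3* (ENSMUSG00000056749.7) at chr13:52967209-52981073 on the minus strand, *Bcl6* (ENSMUSG00000022508.5) at chr16:23965052-23988852 on the minus strand, *Id2* (ENSMUSG00000020644.8) at chr12:25093799-25097140 on the minus strand, *Id3* (ENSMUSG00000007872.3) at chr4:136143497-136145755 on the plus strand and *Irf8* (ENSMUSG00000041515.9) at chr8:120736358-120756694 on the plus strand. A gene on the other strand overlaps the *Bcl6* start and had 917 counts over the 18 libraries, beside 29541 for *Bcl6*; whether counting used strand is not given in the sources used here.

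The sequence before the start of these genes was searched for letters read by STAT and AP-1 factors, because the comparisons below turn on the loss of an IL-2 receptor chain. RefSeq windows for GRCm38 were at hand for 8 of the 9 genes, all but *Maf*, and gave 10 windows of 250 bases, since *Bcl6* and *Irf8* have more than 1 listed start. TTCNNNGAA, the STAT form with a spacing of 3 (the same on both strands), was present in 3 windows of 2 genes, *Bcl6* and *Irf8*, and in 7.02% of all 32851 windows. TGANTCA, an AP-1 form (both strands), was present in 1 window, that of *Prdm1*, and in 6.75% of all windows. The STAT form with 4 bases between TTC and GAA, and GAAA repeated after 2 bases, matched none of the 10 windows and 5.85% and 2.98% of all windows. Composite sites of BATF with IRF4 were not searched for as such. The 4 windows with a match are shown 5′ to 3′ on the gene's strand, with the matched letters in capitals.
Prdm1 (chr10:44458749-44458998, minus strand): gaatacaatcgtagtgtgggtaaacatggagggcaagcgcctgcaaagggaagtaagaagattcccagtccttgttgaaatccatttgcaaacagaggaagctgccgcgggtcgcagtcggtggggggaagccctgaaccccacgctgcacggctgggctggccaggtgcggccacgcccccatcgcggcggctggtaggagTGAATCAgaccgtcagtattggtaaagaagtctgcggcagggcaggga
Bcl6, upstream start (chr16:23988853-23989102, minus strand): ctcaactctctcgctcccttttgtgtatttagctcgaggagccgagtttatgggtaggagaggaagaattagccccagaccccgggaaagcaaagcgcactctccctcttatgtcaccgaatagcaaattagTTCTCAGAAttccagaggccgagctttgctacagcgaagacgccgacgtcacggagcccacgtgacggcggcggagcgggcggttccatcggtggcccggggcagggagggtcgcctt
Bcl6, internal start (chr16:23981284-23981533, minus strand): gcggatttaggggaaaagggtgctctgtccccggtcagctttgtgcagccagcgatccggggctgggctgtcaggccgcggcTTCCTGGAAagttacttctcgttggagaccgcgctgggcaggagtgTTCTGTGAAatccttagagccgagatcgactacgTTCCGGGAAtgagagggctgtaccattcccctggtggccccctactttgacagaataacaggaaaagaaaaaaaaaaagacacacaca
Irf8 (chr8:120736108-120736357, plus strand): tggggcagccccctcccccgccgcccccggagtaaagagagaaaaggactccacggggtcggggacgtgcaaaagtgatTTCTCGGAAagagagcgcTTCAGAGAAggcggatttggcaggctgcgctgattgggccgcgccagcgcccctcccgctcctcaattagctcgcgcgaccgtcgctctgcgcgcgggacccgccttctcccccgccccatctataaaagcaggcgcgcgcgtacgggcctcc
The internal *Bcl6* start lies 7569 bases inside the gene as GENCODE draws it, and the *Prdm1* start 69753 bases inside. Matched letters are a description of these windows and were not tested for binding.

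Total counts were 17239774 to 23993674 per thymic and 25258341 to 32639570 per splenic library, and values are given as CPM (counts scaled to library size) on a TMM scale over the 18 libraries. *Il2ra* was lower in every CD25 KO than in every WT mouse, at 95.9 to 280 against 524 to 682 CPM in the thymus and 168 to 208 against 488 to 539 CPM in the spleen. *Foxp3*, the lineage factor, was also below WT in every CD25 KO mouse of either tissue (270 to 336 against 400 to 578 CPM in the thymus, 204 to 239 against 322 to 345 CPM in the spleen). Thymic CD25 KO mice 2 and 4 stood apart, with 280 and 234 CPM of *Il2ra* against 95.9 to 105 in the other 3, and with 506 and 347 CPM of the proliferation gene *Mki67* against 69.1 to 105. Results that rest on these libraries are given with and without them. B cell markers (6 genes) summed to 10.2 to 23.99 CPM over all 18 libraries, and myeloid and dendritic cell markers (9 genes) to 14.5 to 54.9 CPM, beside 3837 to 5133 CPM for 9 Treg markers. Immature thymocyte markers (8 genes) summed to 47.7 to 209 CPM in thymic and 14.1 to 21.4 CPM in splenic libraries.

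In WT Tregs the order of the 9 factors differed between the tissues (levels per length, as CPM per kilobase of exons). In the thymus *Id3* was highest, at 36.5 ± 3.40 CPM per kilobase (SD, n = 5), followed without overlap by *Irf4* (21.2 ± 0.870), *Batf* (16.3 ± 1.43) and *Bcl6* (9.40 ± 0.598). *Bcl6*, *Id2* (7.08 ± 2.53) and *Irf8* (5.78 ± 1.44) overlapped their neighbours in that order. *Maf* (2.35 ± 0.388) and *Nfil3* (2.12 ± 0.358) overlapped each other, and *Prdm1* was lowest, at 0.967 ± 0.243 CPM per kilobase, below every value of the other 8. In the spleen *Batf* led, at 36.2 ± 2.55 CPM per kilobase (SD, n = 4), and *Batf*, *Id3* (33.8 ± 4.21) and *Maf* (29.0 ± 3.69) formed a run of overlapping neighbours. *Id2* (19.6 ± 2.25) and *Irf4* (17.5 ± 1.17) overlapped each other, as did *Bcl6* (7.499 ± 0.587), *Prdm1* (6.78 ± 0.914) and *Nfil3* (6.74 ± 0.995), while *Irf8* was lowest, at 4.27 ± 0.446 CPM per kilobase. *Maf* thus held rank 7 of 9 in the thymus and rank 3 in the spleen.

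**Figure D1:**
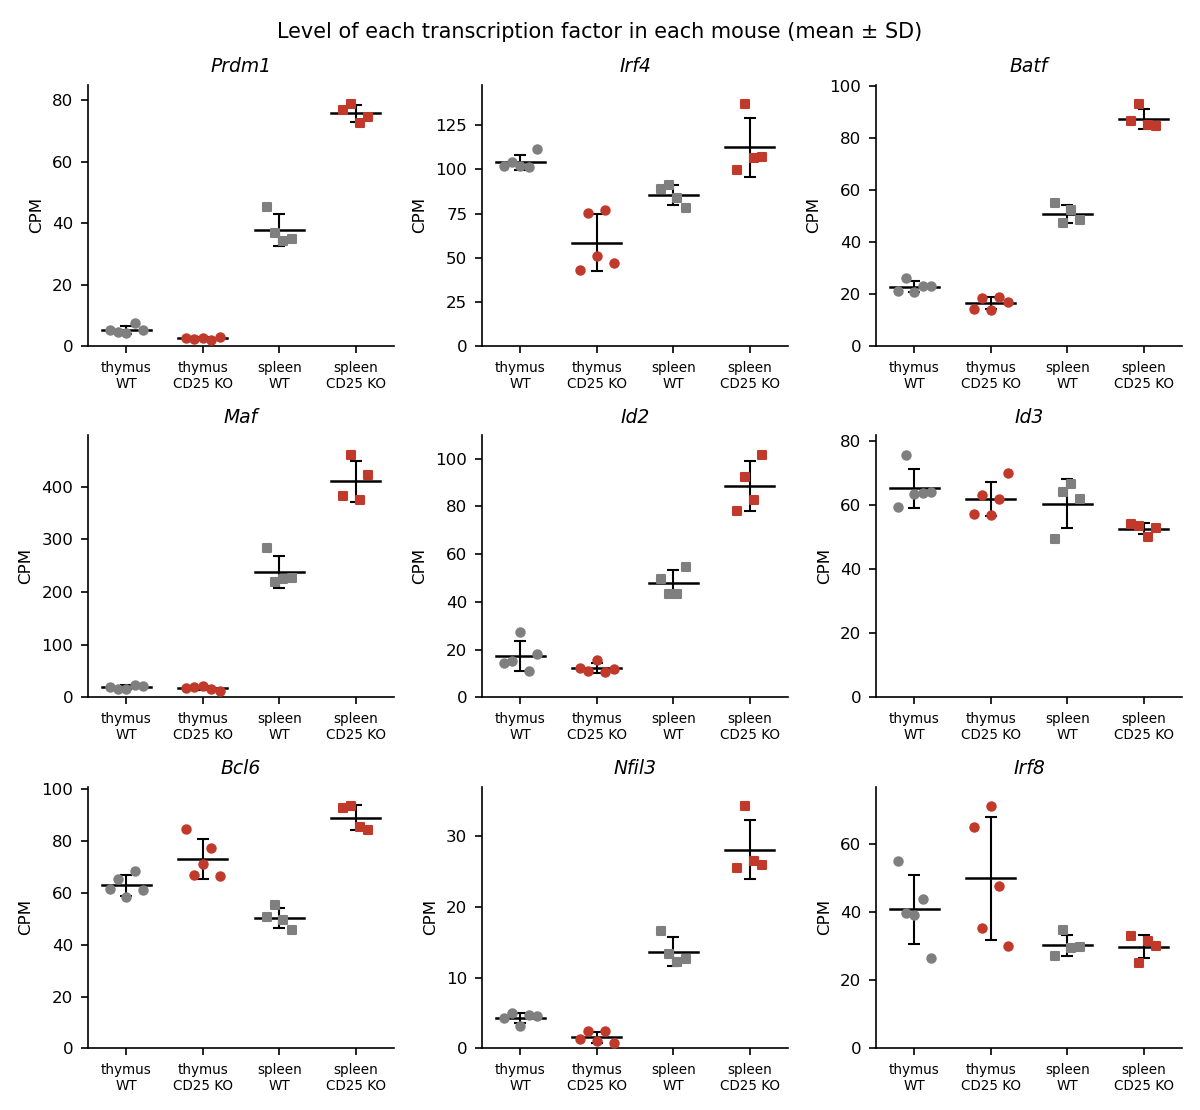
Level in CPM (vertical axis, linear, from 0) of each of the 9 factors in each mouse, with the mean and SD of the group; circles are thymic and squares splenic samples, grey WT and red CD25 KO. *Prdm1*, *Irf4*, *Batf* and *Nfil3* of the thymic CD25 KO mice lay below all thymic WT mice, and 7 factors of the splenic CD25 KO mice lay above all splenic WT mice.

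*Prdm1*, *Irf4* and *Nfil3* were lower in thymic Tregs of CD25 KO than of WT mice. At an adjusted p under 0.01 (edgeR's quasi-likelihood test, Benjamini-Hochberg over all genes tested), 3 of the 9 factors were lower and 0 higher, against 6.16% of the 16986 genes tested called in either direction and 2.99% called lower. Groups did not overlap for 4 of the 9, against 16.4% of all genes tested. The median log2 fold change of the 9 was -0.46, beside -0.0022 for all genes tested.

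*Prdm1*, which encodes Blimp-1, stood at 5.33, 4.63, 4.18, 7.68 and 5.17 CPM in thymic WT mice 1 to 5 and at 2.55, 2.35, 2.83, 2.12 and 3.10 CPM in CD25 KO mice 1 to 5. All CD25 KO values lay below all WT values, although the level was low in both, at 47 to 59 raw counts in the CD25 KO and 93 to 168 in the WT libraries. *Prdm1* fell by 1.05 on the log2 scale (SE 0.182, adjusted p = 0.00366), a level 2.07-fold lower. Without CD25 KO mice 2 and 4, the lowest of the group, the log2 fold change was -0.92 and just missed the threshold (adjusted p = 0.0103).

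*Irf4*, the partner of BATF, stood at 102, 104, 102, 101 and 112 CPM in WT mice 1 to 5, a narrow range. In CD25 KO mice 1 to 5 it stood at 43.0, 75.2, 50.9, 76.9 and 47.3 CPM. The groups did not overlap, and mice 2 and 4, with the higher *Il2ra*, had the higher *Irf4* of the CD25 KO group. *Irf4* fell by 0.81 on the log2 scale (SE 0.151, adjusted p = 0.00497). Without CD25 KO mice 2 and 4 the log2 fold change was -1.14 (adjusted p = 9.3e-06).

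*Nfil3* stood at 4.22, 4.97, 3.10, 4.66 and 4.57 CPM in WT mice 1 to 5 and at 1.25, 2.40, 1.03, 2.39 and 0.735 CPM in CD25 KO mice 1 to 5, on 14 to 53 counts per CD25 KO library. The groups did not overlap, and mice 2 and 4 were again the highest of the CD25 KO group. *Nfil3* fell by 1.42 on the log2 scale (SE 0.287, adjusted p = 0.00687), and without those mice by 2.08 (adjusted p = 0.00021). Whether the proliferation or the higher *Il2ra* RNA of mice 2 and 4 has a part in their *Irf4* and *Nfil3* was not tested.

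*Batf* stood at 21.4, 26.1, 21.1, 23.1 and 23.1 CPM in WT and at 14.3, 18.5, 13.9, 18.8 and 17.1 CPM in CD25 KO mice 1 to 5, again without overlap. Its log2 fold change of -0.46 (SE 0.103) just missed the threshold (adjusted p = 0.0106). It passed with DESeq2 (adjusted p = 0.00062) and without mice 2 and 4 (log2 fold change -0.60, adjusted p = 0.0022). Mice 2 and 4 had the highest *Batf* of the CD25 KO group, so a larger fall without them follows from leaving them out. *Batf* is rich in GC (56.6%), and after a correction for the GC trend of each library its log2 fold change was -0.30 (adjusted p = 0.0673).

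The other 5 factors did not pass the test in the thymus. *Bcl6* stood at 61.6, 65.3, 58.3, 68.6 and 61.1 CPM in WT and at 84.6, 66.8, 71.1, 77.3 and 66.3 CPM in CD25 KO mice, with the highest WT mouse above the 2 lowest CD25 KO mice and a log2 fold change of 0.23 (SE 0.0728, adjusted p = 0.0378). *Id2* had a log2 fold change of -0.47 (95% interval -0.91 to -0.02, adjusted p = 0.115), with WT values from 11.2 to 27.4 CPM, the highest in mouse 3, and CD25 KO values from 10.8 to 15.8 CPM. Without WT mouse 3 the log2 fold change of *Id2* was -0.24. *Maf* overlapped broadly, at 15.9 to 23.5 CPM in WT and 11.3 to 22.1 CPM in CD25 KO mice, with a log2 fold change of -0.14 (95% interval -0.50 to 0.21). *Id3* did too, at 59.6 to 75.8 and 57.1 to 70.1 CPM, with a log2 fold change of -0.06 (95% interval -0.23 to 0.10). For *Irf8* it was 0.30 (95% interval -0.21 to 0.81), and 0.14 without CD25 KO mouse 3. *Irf8* varied from mouse to mouse, from 26.5 to 54.8 CPM in WT and from 30.0 to 71.0 CPM in CD25 KO mice. In the thymic libraries the summed myeloid and dendritic cell markers, cells in which *Irf8* is abundant, ranged from 14.5 to 54.9 CPM in WT and from 19.1 to 53.4 CPM in CD25 KO mice, and their part in *Irf8* was not tested.

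The thymic calls lay close to the threshold. With 1 mouse left out at a time, the adjusted p of *Prdm1* ran from 0.00343 to 0.011 and passed in 9 of 10 fits, failing without CD25 KO mouse 1. That of *Irf4* ran from 0.00269 to 0.0157 and failed without WT mouse 2, 3 or 5 or CD25 KO mouse 1 or 3, and that of *Nfil3* ran from 0.00501 to 0.0206 and passed in 3 of 10, those without CD25 KO mouse 2, 4 or 5. Log2 fold changes stayed between -1.13 and -0.88 for *Prdm1*, -0.93 and -0.71 for *Irf4*, and -1.63 and -1.25 for *Nfil3*.

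**Figure D2:**
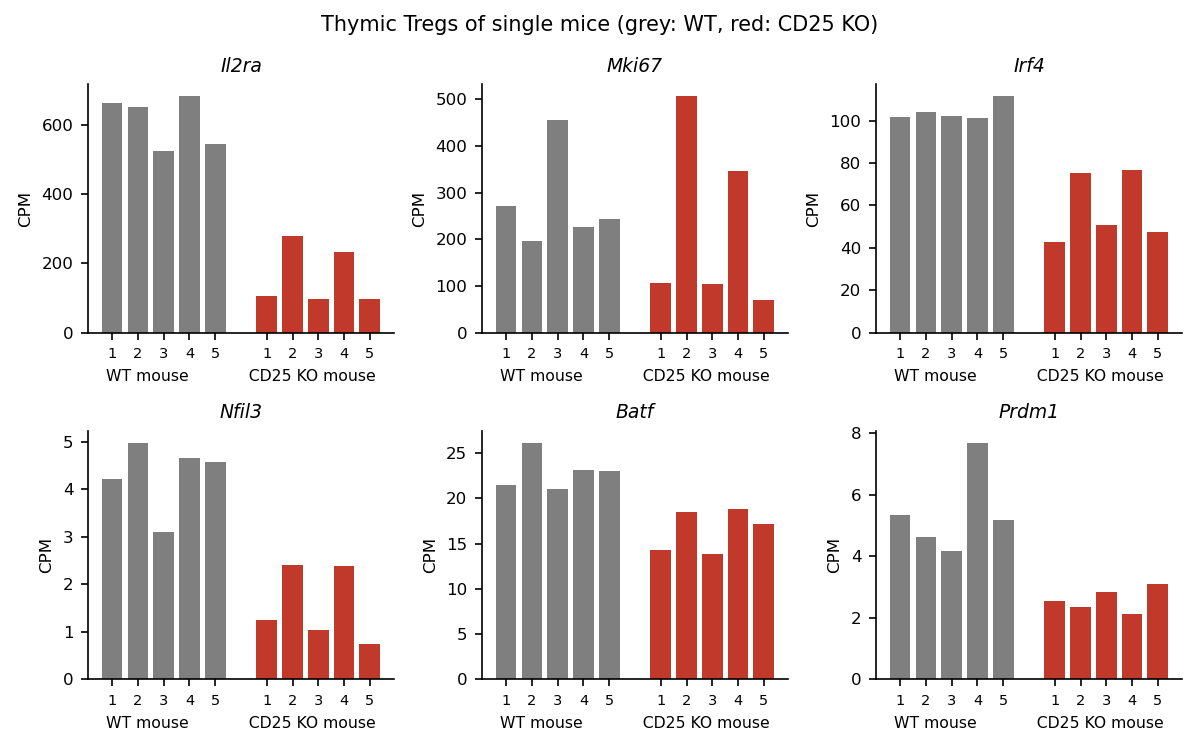
Level in CPM (bars from 0) of *Il2ra*, *Mki67* and 4 of the factors in each thymic mouse, WT mice 1 to 5 in grey and CD25 KO mice 1 to 5 in red. CD25 KO mice 2 and 4 were above the other 3 CD25 KO mice in *Il2ra*, *Mki67*, *Irf4*, *Nfil3* and *Batf*, and were the lowest in *Prdm1*.

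In splenic Tregs 7 of the 9 factors were higher in CD25 KO than in WT mice, and *Id3* and *Irf8* did not pass the threshold. All 7 calls were higher, against 9.45% of the 17463 genes tested called in either direction and 5.9% called higher. Groups did not overlap for 7 of the 9, against 20.4% of all genes tested, and the median log2 fold change was 0.78, beside -0.0065 for all genes.

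*Prdm1* stood at 45.3, 36.9, 34.4 and 34.8 CPM in splenic WT mice 1 to 4 and at 77.0, 78.9, 72.6 and 74.6 CPM in CD25 KO mice 1 to 4. Every CD25 KO value was well above every WT value. *Prdm1* rose 2.00-fold (log2 fold change 1.00, SE 0.0773, adjusted p = 6.2e-07).

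*Batf* stood at 55.0, 47.3, 52.6 and 48.6 CPM in WT and at 86.7, 93.3, 85.2 and 84.7 CPM in CD25 KO mice. It rose 1.72-fold (log2 fold change 0.78, SE 0.0596, adjusted p = 6.1e-07), with a gap between the groups far wider than the spread within either. Its partner *Irf4* moved less: it stood at 88.7, 91.3, 84.2 and 78.2 CPM in WT and at 99.6, 137, 106 and 107 CPM in CD25 KO mice, a 1.32-fold rise (log2 fold change 0.40, SE 0.0843, adjusted p = 0.00386). The groups of *Irf4* did not overlap, but the lowest CD25 KO and the highest WT mouse lay close together. *Irf4* failed the threshold without WT mouse 3 (adjusted p = 0.0156) or WT mouse 4 (0.0194), and when the spread was estimated over all 18 samples (0.0939).

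*Nfil3* stood at 16.6, 13.3, 12.1 and 12.6 CPM in WT and at 25.5, 34.2, 26.4 and 25.9 CPM in CD25 KO mice. CD25 KO mouse 2 was the highest and the other 3 nearly level, all above WT. *Nfil3* rose 2.05-fold (log2 fold change 1.04, SE 0.112, adjusted p = 1.3e-05), by an amount that its error does not separate from that of *Prdm1*.

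*Maf*, which encodes the follicular and cytokine regulator c-MAF, stood at 284, 220, 224 and 227 CPM in WT and at 382, 461, 375 and 423 CPM in CD25 KO mice. WT mouse 1 was above the other WT mice but below every CD25 KO mouse. *Maf* rose 1.72-fold (log2 fold change 0.78, SE 0.0834, adjusted p = 1.1e-05).

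*Bcl6* stood at 50.7, 55.1, 49.6 and 45.6 CPM in WT and at 92.8, 93.6, 85.5 and 84.4 CPM in CD25 KO mice, without overlap. It rose 1.77-fold (log2 fold change 0.83, SE 0.0633, adjusted p = 6.1e-07). *Bcl6* and *Prdm1*, whose products repress each other, were thus both higher in the same libraries, and bulk counts do not tell whether in the same cells. In sorted cells a change in the number of cells that express a gene and a change in RNA per cell likewise cannot be told apart.

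*Id2* stood at 49.4, 43.3, 43.4 and 54.7 CPM in WT and at 78.1, 92.2, 82.7 and 102 CPM in CD25 KO mice, without overlap, and rose 1.86-fold (log2 fold change 0.90, SE 0.0875, adjusted p = 4.9e-06). Its relative *Id3* went the other way in value: it stood at 49.7, 64.1, 66.6 and 62.0 CPM in WT and at 54.2, 53.4, 50.2 and 53.0 CPM in CD25 KO mice. WT mouse 1 lay below all CD25 KO mice and the other 3 WT mice above them. The log2 fold change of *Id3* was -0.20 (95% interval -0.36 to -0.04, adjusted p = 0.0891), and -0.29 without WT mouse 1 (adjusted p = 0.0026).

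*Irf8* stood at 27.1, 34.5, 29.3 and 29.6 CPM in WT and at 32.9, 25.0, 31.5 and 29.9 CPM in CD25 KO mice, fully mixed. Its log2 fold change was -0.02 (95% interval -0.21 to 0.18), or 0.867- to 1.13-fold.

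Among markers of other cells, the summed cytotoxic and NK cell markers (5 genes) ran from 10.3 to 14.7 CPM in splenic WT and from 19.2 to 23.8 CPM in CD25 KO mice, and the summed myeloid and dendritic cell markers from 18.4 to 23.3 and from 23.8 to 30.3 CPM. The B cell sum overlapped between the groups (20.8 to 22.4 against 20.1 to 23.99 CPM). *Klrb1c* (log2 fold change 1.90), *Lyz2* (1.03) and *Pax5* (1.04) of these lists were called higher in CD25 KO mice, at means of 4.27, 12.6 and 3.21 CPM there. Of the defining markers, *Ncr1* of the cytotoxic and NK list was at 0 in every splenic library and *Klrk1* had 0 to 7 counts, while *Eomes* had means of 4.49 in WT and 9.05 CPM in CD25 KO mice and *Prf1* of 6.23 and 7.88 CPM. All 3 genes tested of that list had an unadjusted p under 0.05, of which edgeR called 1 and DESeq2 0. In the myeloid and dendritic list *Lyz2* had means of 6.18 and 12.6 CPM, while *Csf1r* (6.45 and 5.48 CPM), *Cd68* (5.77 and 6.01 CPM) and *Xcr1* (1.81 and 2.19 CPM) were not called and the other 5 genes had 0 to 23 counts. The genes of these lists that were not called were named after their values were seen. Their part in the rise of the 7 factors was not tested.

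**Figure D3:**
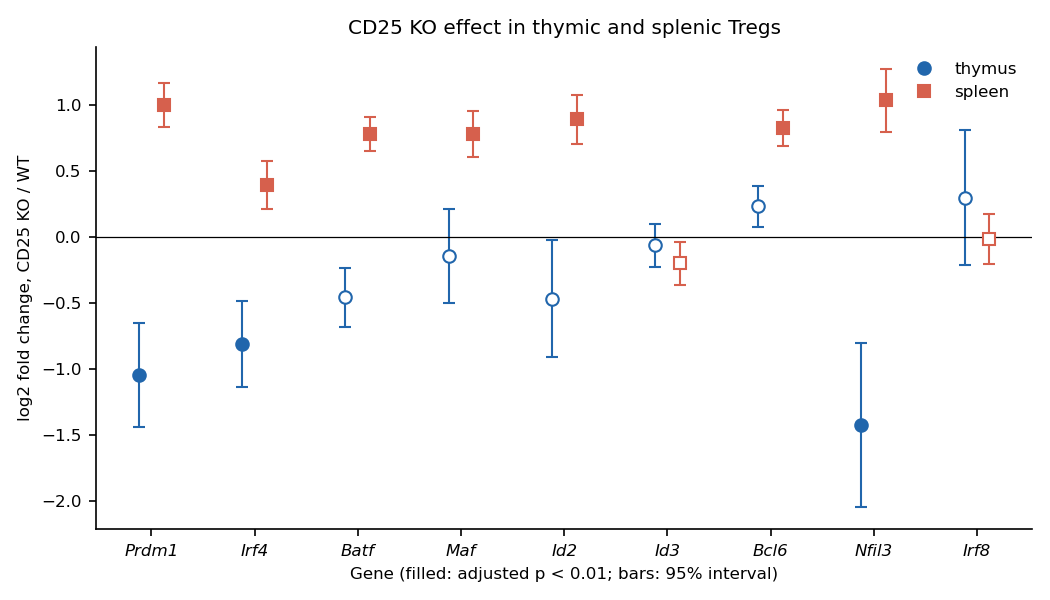
Log2 fold change of CD25 KO over WT (vertical axis) with its 95% interval for each of the 9 factors, in thymus (blue circles) and spleen (red squares); filled symbols passed an adjusted p of 0.01. *Prdm1*, *Irf4* and *Nfil3* lay below 0 in the thymus and above 0 in the spleen, and the intervals of *Irf8* included 0 in both.

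The CD25 KO effect differed between the tissues for 7 of the 9 factors, all more positive in the spleen, against 6.98% of 18686 genes tested called in either direction and 4.5% called more positive. The differences in log2 fold change, spleen minus thymus, were 2.47 for *Nfil3* (SE 0.305, adjusted p = 2.1e-05), 2.06 for *Prdm1* (SE 0.193, adjusted p = 9.3e-07), 1.38 for *Id2* (SE 0.247, adjusted p = 0.00089), 1.26 for *Batf* (SE 0.123, adjusted p = 1.5e-06), 1.22 for *Irf4* (SE 0.194, adjusted p = 0.000297), 0.94 for *Maf* (SE 0.195, adjusted p = 0.0029) and 0.61 for *Bcl6* (SE 0.104, adjusted p = 0.00058). For *Id3* it was -0.12 (95% interval -0.37 to 0.12) and for *Irf8* -0.30 (-0.92 to 0.31). Direction was opposite with both effects called for 3 of the 9, *Prdm1*, *Irf4* and *Nfil3*, and for 80 of the 16214 genes tested in both tissues (0.493%). The 7 differences passed in each of the 18 fits that left out 1 mouse.

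Because both factors of a pair share a library, their count ratio does not depend on its scaling. *Prdm1* gave 0.0709 to 0.112 counts per *Bcl6* count in thymic WT mice and 0.0274 to 0.0467 in thymic CD25 KO mice, lower without overlap. In the spleen the ratio was 0.670 to 0.894 in WT and 0.8291 to 0.884 in CD25 KO mice, overlapping, since both genes rose by a similar factor. *Id2* gave 0.651 to 0.995 counts per *Id3* count in splenic WT and 1.44 to 1.92 in splenic CD25 KO mice, so that *Id2* passed *Id3* in count in every splenic CD25 KO mouse and in no other mouse of the 18. In the thymus the *Id2* to *Id3* ratio overlapped, at 0.175 to 0.431 in WT and 0.172 to 0.276 in CD25 KO mice. *Irf4* gave 1.86 to 4.21 counts per *Irf8* count in thymic WT and 0.662 to 2.13 in thymic CD25 KO mice. It was below 1 in CD25 KO mice 1 and 3, and the groups overlapped through WT mouse 1 and CD25 KO mouse 2. Summed myeloid and dendritic cell markers were 53.2 and 53.4 CPM in CD25 KO mice 1 and 3, and 19.1 to 34.4 CPM in the other CD25 KO mice. They were highest in WT mouse 1 (54.9 CPM, lowest WT ratio) and lowest in WT mouse 5 (14.5 CPM, highest WT ratio). Their part in this ratio was not tested. In the spleen the *Irf4* to *Irf8* ratio was 2.64 to 3.27 in WT and 3.03 to 5.49 in CD25 KO mice.

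**Figure D4:**
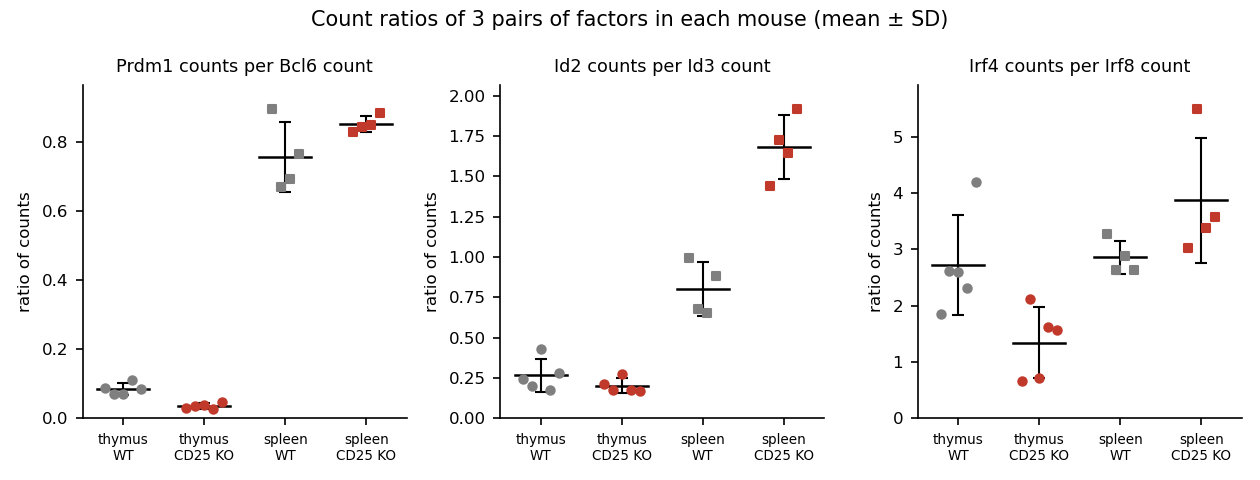
Ratio of raw counts within each library (vertical axes, linear, from 0) for *Prdm1* to *Bcl6*, *Id2* to *Id3* and *Irf4* to *Irf8*, with the mean and SD of each group; grey is WT, red CD25 KO, circles thymus, squares spleen. The *Id2* to *Id3* ratio exceeded 1 in the 4 splenic CD25 KO mice and stayed below it in all others.

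Splenic and thymic WT Tregs were compared to see where each factor stood without deletion. Of the 9, 5 were higher and 1 lower in the spleen, in a comparison that called 40.4% of 18686 genes and 21% as higher. *Maf* was 12.4-fold higher (220 to 284 against 15.9 to 23.5 CPM; log2 fold change 3.63, SE 0.143) and *Prdm1* 7.02-fold higher (34.4 to 45.3 against 4.18 to 7.68 CPM; 2.81, SE 0.129). *Nfil3* (1.66, SE 0.201), *Id2* (1.47, SE 0.173) and *Batf* (1.15, SE 0.0857) were also higher, each without overlap. *Bcl6* fell by 0.33 on the log2 scale (SE 0.0742, adjusted p = 0.00101), also without overlap, while *Irf4* (-0.28, adjusted p = 0.0897), *Irf8* (-0.43, adjusted p = 0.089) and *Id3* (-0.11, adjusted p = 0.272) did not pass. *Irf4* was nonetheless lower in every splenic than in every thymic WT mouse (78.2 to 91.3 against 101 to 112 CPM). The fit took its spread from all 18 samples, CD25 KO mice included. *Irf8* and *Id3* overlapped. With the WT samples shared between this and the CD25 KO comparisons, the values are given side by side and not set against each other.

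For the 7 factors called in any CD25 KO comparison, the genes with the most similar profile over the 18 samples were found by the root mean square difference of centred log2 CPM, among 16068 genes tested in both tissues and in none of the lists. The nearest to *Prdm1* (difference 0.24, beside an SD of 2.03 for *Prdm1* itself) was *S100a11*, at means of 6.77 and 3.57 CPM in thymic WT and CD25 KO and 41.3 and 79.6 CPM in splenic WT and CD25 KO mice, followed by *Nav2* (0.34). The nearest to *Nfil3* were *Axl* (0.26), a receptor tyrosine kinase, and *Slc39a4* (0.29), a zinc transporter. *Axl* fell by 1.50 in the thymus and rose by 0.59 in the spleen on the log2 scale. *Irf4* was followed most closely by *Mcm6* (0.14), a subunit of the replicative helicase, and *Psat1* (0.15), a serine synthesis enzyme, beside an SD of 0.45 for *Irf4*. *Batf* was nearest to *S1pr2* (0.16) and *S100a10* (0.17), *Maf* to *Gm16702* (0.29) and *Cst7* (0.36), *Id2* to *Smco4* (0.28) and *Btbd19* (0.28), and *Bcl6* to *Gm16675* (0.18) and *Gm28777* (0.19). *Gm16702* was low in the thymus, at 9 to 21 counts, and *Gm28777* throughout, at 12 to 39 counts. A profile over 18 samples holds the tissue difference too, so near profiles can differ in the CD25 KO effect. In the thymus *Cst7* had a log2 fold change of -0.69 without overlap, and *Maf* -0.14 with overlap. The *Bcl6* differences were not small beside the SD of *Bcl6* itself (0.31).

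Effector Treg genes were called lower in the thymus and higher in the spleen. Of 24 effector Treg genes, 22 were tested in the thymus, with 10 lower and 0 higher (median log2 fold change -0.68), and in the spleen 16 of 24 were higher and 0 lower (0.74). Over all genes tested, 2.99% were called lower in the thymus and 5.9% higher in the spleen, with medians of -0.0022 and -0.0065. The thymic count of effector Treg genes ran from 6, without WT mouse 2 or CD25 KO mouse 1, to 11 with 1 mouse left out. It was 14 by DESeq2 and 16 in the fit of all 18 samples. Several of them were picked out by the study on these same samples, so the list is not independent evidence of its direction. *Tigit*, an inhibitory receptor, fell by 2.58 (SE 0.232) in the thymus and rose by 1.28 (SE 0.0994) in the spleen on the log2 scale. *Il1rl1*, the IL-33 receptor, fell by 4.62 (SE 0.516) and rose by 0.73 (SE 0.0833). It had 120 to 321 counts per thymic WT library and 0 to 15 per thymic CD25 KO library, so the size of its fall is uncertain. *Klrg1*, a receptor of terminal effector cells, had 18 to 91 counts per thymic WT library and 0 to 1 per thymic CD25 KO library, and rose by 0.77 (SE 0.0753) in the spleen. *Gzmb* (granzyme B) rose by 3.41 (SE 0.153) in the spleen, from 4.49 ± 1.11 to 47.5 ± 8.33 CPM (SD, n = 4), and *Il10* by 2.02 (SE 0.206). *Il10* was not tested in the thymus, where it had 0 to 15 counts. The difference between the tissues was called for 19 of the 24, all more positive in the spleen, against 4.5% of all genes tested called more positive.

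Central Treg genes, which mark resting lymphoid Tregs, moved less uniformly. In the thymus 1 of 12 was lower and 0 higher (median -0.02), *Klf2*, a factor for lymphoid homing (-0.53, SE 0.0903). That count was 0 without WT mouse 2, 3 or 5 or CD25 KO mouse 3, and 2 by DESeq2. Over all genes tested, 2.99% were called lower in the thymus. In the spleen 6 central Treg genes were lower and 1 higher (median -0.27), against 620 lower and 1031 higher of all 17463 genes tested. *Ly6c1* fell by 1.30 (SE 0.183) and the survival gene *Bcl2* by 1.01 (SE 0.0583), while *Tcf7*, a factor of resting T cells, rose by 0.24 (SE 0.0555). The number called higher was 0 in 6 of 8 fits with 1 mouse left out, all but those without CD25 KO mouse 1 or 3, and also with upper-quartile scaling and in the fit of all 18 samples. Of the 7 genes of follicular regulatory T cells, which need *Bcl6* and *Maf*, 0 of 6 tested passed in the thymus (edgeR; 0 by DESeq2, 3 at an unadjusted p under 0.05) and 5 of 7 were higher in the spleen (median 0.56), or 3 in the fit of all 18 samples. Over all genes tested, 5.9% were called higher in the spleen. The follicular genes with the largest folds were *Il21* (1.53, SE 0.187), *Ascl2* (1.45, SE 0.268) and the checkpoint receptor *Pdcd1* (0.78, SE 0.0854). *Il21* and *Ascl2* stayed low, at 11.3 ± 2.76 and 1.62 ± 0.375 CPM in CD25 KO (SD, n = 4).

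Of 15 proliferation genes, 10 were higher in splenic CD25 KO Tregs (median 0.83), with *Ccnb2* (1.201, SE 0.149), *Ccnb1* (1.02, SE 0.157) and *Mki67* (1.01, SE 0.0829) leading, and 0 of 15 in the fit of all 18 samples. That fit estimates the spread over thymic mice as well. The SD of *Mki67* was 84.8% of its mean in thymic and 14.8% in splenic CD25 KO mice. Over all genes tested, 5.9% were called higher in the spleen, and 424 of 18686 in the fit of all 18 samples. In the thymus all 15 had values below 0 (median -0.66) and 0 passed (edgeR; 0 by DESeq2, 2 at an unadjusted p under 0.05), with *Mki67* at 69.1 to 506 CPM in CD25 KO against 197 to 456 CPM in WT mice. Without CD25 KO mice 2 and 4, 14 of the 15 were called lower, against 1232 of all 17433 genes tested in that fit. Those mice were set apart partly by *Mki67*, itself among the 15. Their summed proliferation genes were at 1498 and 1252.5 CPM, against 341 to 439 CPM in the other CD25 KO mice. That count thus follows in part from the choice of mice left out and is no separate support for a fall. The part of the proliferation genes in the levels of the factors was not tested.

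**Figure D5:**
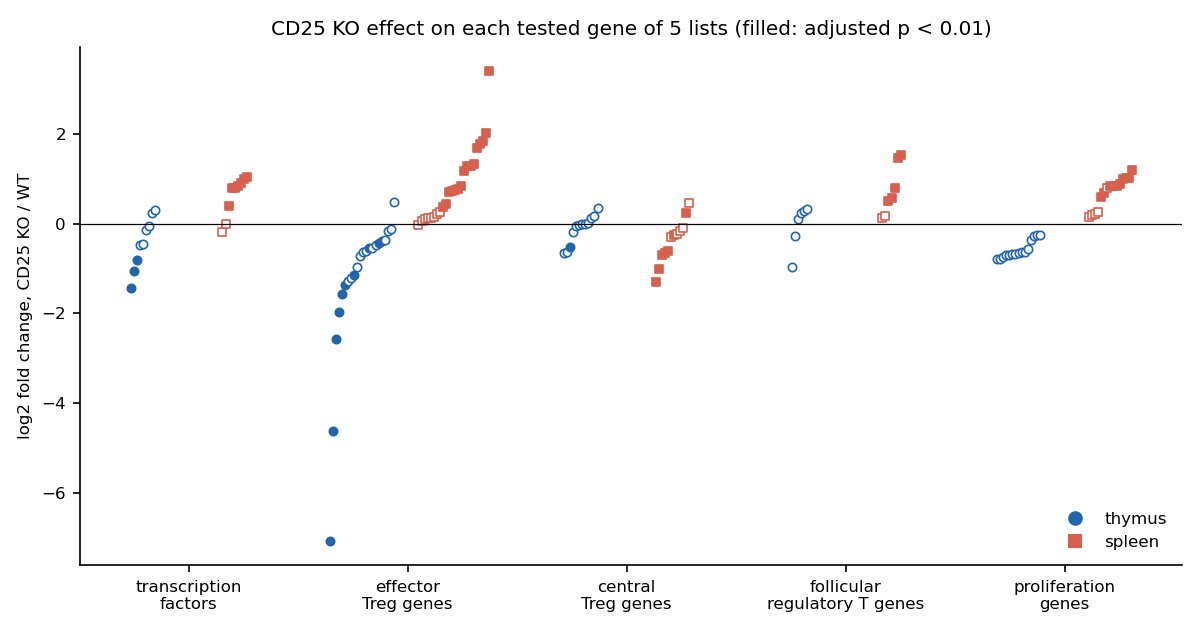
Log2 fold change of CD25 KO over WT (vertical axis) of each tested gene of 5 lists, in thymus (blue circles) and spleen (red squares), ordered by value within each list; filled symbols passed an adjusted p of 0.01. In the spleen 16 effector and 10 proliferation genes were called higher, and in the thymus 10 effector genes were called lower; the lowest thymic point, *Klrg1*, has 0 to 1 counts per CD25 KO library, so its fitted value depends on the prior count.

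Relatives and partners of the 9 factors were mostly not called, beside 6.16% of all genes tested called in the thymus and 9.45% in the spleen. Of 7 other interferon regulatory factors, *Irf5* fell by 0.79 (SE 0.112, adjusted p = 0.00157) and *Irf1* rose by 0.34 (SE 0.0708, adjusted p = 0.00811) in the thymus on the log2 scale, and 0 of 7 passed in the spleen (edgeR; 1 by DESeq2, 1 at an unadjusted p under 0.05). Of 4 AP-1 partners of BATF, 2 were tested and 0 passed in either tissue with edgeR, while DESeq2 called 1 thymic and 0 splenic effects. An unadjusted p under 0.05 was found for 1 thymic and 2 splenic effects. Among these *Jun*, chosen after its values were seen, varied widely in thymic WT mice, from 34.5 to 197 CPM, against 37.5 to 54.8 CPM in CD25 KO mice. Of 5 E proteins and other Id proteins, 4 were tested and 0 passed in either tissue with edgeR or DESeq2, with 1 in the thymus and 0 in the spleen at an unadjusted p under 0.05. *Mafg*, a small MAF protein, rose by 0.31 (SE 0.0736, adjusted p = 0.00774) in the spleen while its thymic log2 fold change was -0.34 (adjusted p = 0.01). *Dbp*, a PAR bZIP factor that binds the same sites as NFIL3, fell by 0.50 in the spleen (SE 0.0871, adjusted p = 0.00086). Its thymic log2 fold change was -0.43 (adjusted p = 0.0124), and the tissues did not differ by the test (-0.055, adjusted p = 0.82). DESeq2 called 1 PAR bZIP factor lower in the thymus. Of 3 BCL6 corepressors, 0 passed in either tissue with edgeR. In the thymus all 3 had an unadjusted p under 0.05 and DESeq2 called 1 lower and 1 higher, and in the spleen both counts were 0.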

How the data were processed

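FACS-purified Foxp3+ Tregs of 18 mice were profiled by RNA-seq after ribosomal RNA depletion (5 CD25 KO and 5 WT thymic, 4 and 4 splenic samples). Per the labels and the study's methods, the authors aligned paired reads to GRCm38 with STAR 2.5.0b and counted them per GENCODE M13 gene with featureCounts 1.5.0. The deposited values are raw counts for 50600 genes, with no normalization. Symbols, lengths and GC content came from GENCODE M21 (50376 identifiers matched), and promoter windows from RefSeq.

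The 9 genes and all gene lists were chosen with earlier results of these data known. Among these results is the paper's report of higher *Prdm1* and *Irf4* in splenic CD25 KO Tregs. Counts were tested with edgeR 4.0.16 (R 4.3.3): filterByExpr, TMM, quasi-likelihood F-test, Benjamini-Hochberg adjustment over all genes tested, threshold 0.01. Each tissue was fitted alone, and the difference between tissues and the WT comparison over both. Errors are standard errors (log2 fold change over the square root of F) with 95% intervals. CPM used TMM factors over the 18 libraries. Nothing in the labels names separate litters or batches within a tissue, and 1 mouse gave 1 library. Replicates differed by more than sampling noise (chi-square per degree of freedom at least 3.77). A count of 3 corresponds to at most 0.163 CPM in the thymus and 0.129 CPM in the spleen, which covers counting error only.

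Besides the 9 genes, *Il2ra* and *Foxp3*, the text names up to 3 called genes with the largest fold changes per list, tissue and direction, and the 2 nearest profiles (log2 CPM, prior count 2) of each factor called; 2 genes that the rule names are not reported here. Alternatives were RLE and upper-quartile scaling, DESeq2 1.42.0, other filters on low counts (none, or at least 10 in every sample), a GC correction (a spline with 6 degrees of freedom per library), a threshold of 0.05, 1 fit of all 18 samples, a replicate block, and fits without single mice. Scripts were tested on simulated counts.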

Additional observations from a re-analysis of the deposited data

Results flagged for a closer look

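Of 36 groups (9 factors in 4 groups), 4 had 1 mouse set apart from the others by Dixon's criterion, which chance alone does in about 1 of 20 groups. *Irf4* was 112 CPM in thymic WT mouse 5, against 101 to 104 CPM in the other 4. *Id3* was 75.8 CPM in thymic WT mouse 2, against 59.6 to 64.3 CPM. *Maf* was 284 CPM in splenic WT mouse 1, against 220 to 227 CPM. *Nfil3* was 34.2 CPM in splenic CD25 KO mouse 2, against 25.5 to 26.4 CPM.

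The CD25 KO effect differed between spleen and thymus for 7 factors by the test of the difference itself (edgeR, adjusted p under 0.01). Subtracting the thymic from the splenic log2 fold change gave 2.06 for *Prdm1*, 1.22 for *Irf4*, 1.26 for *Batf*, 0.94 for *Maf*, 1.38 for *Id2*, 0.61 for *Bcl6* and 2.47 for *Nfil3*. Tissue, mouse model, age, tamoxifen and the date in the column names cannot be told apart in it.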

How the results depend on the processing

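In the thymus the number of the 9 factors called was 3, and 3 or 4 under other scalings, DESeq2, other filters, the GC correction, the fit of all 18 samples and without CD25 KO mice 2 and 4. It was 5 at a threshold of 0.05 and 0 to 4 with 1 mouse left out, 0 of them without CD25 KO mouse 1 and 1 without WT mouse 2, 3 or 5 or CD25 KO mouse 3. With the replicate block it was 0, also with the GC correction added. Same-numbered thymic mice correlated at -0.24 to 0.14, so the numbers do not pair them, and the splenic labels carry no shared numbers. In the spleen 7 were called, 6 in the fit of all 18 samples and 6 to 8 with 1 mouse left out. The 7 calls of the tissue difference and the 6 of the WT comparison held in number throughout. *Id3* in the thymus changed sign with the GC correction (log2 fold change 0.092, and 0.083 with the replicate block and GC correction), and *Irf8* in the spleen with it (0.0102) and with 1 mouse left out (-0.068 to 0.0602, positive without WT mouse 2 or CD25 KO mouse 2). None of these passed the test.

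Over all genes, thymic calls numbered 1047, with 2730 by DESeq2, 3951 at a threshold of 0.05, 2881 in the fit of all 18 samples, 209 with the replicate block, 204 with the replicate block and GC correction, 2008 without CD25 KO mice 2 and 4, and 371 to 1087 with 1 mouse left out. Splenic calls numbered 1651, with 3001 at 0.05, 795 in the fit of all 18 samples and 1099 to 1723 with 1 mouse left out. Calls of the tissue difference numbered 1305, with 2188 by DESeq2, 3149 at 0.05, 2307 without CD25 KO mice 2 and 4, and 817 to 1489 with 1 mouse left out. Upper-quartile scaling moved the share of higher calls from 51.48% to 64.74% in the thymus and from 64.37% to 47.94% in the difference. The cause of these shifts was not tested. Thymic log2 fold changes followed GC content across genes (rho -0.40, a rank correlation over 16945 genes that are not independent replicates). At 14 to 59 counts per thymic CD25 KO library, *Prdm1* and *Nfil3* had the least depth of the 9. The thymic count of effector Treg genes called lower was 10, and 6 with the replicate block. Of the 14 nearest profiles, 13 stayed the same with a prior count of 0.5.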
